A study of Mus musculus with 141 samples.

Results

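The comparison set cultures that received IL6, TGFb and IL1b (the IL1b cocktail) against cultures that received IL6, TGFb and IL21 (the IL21 cocktail), both collected after 12 h. It used 6 of the 141 libraries of the series, chosen by the labelled cytokines and time: 3 with IL1b and 3 with IL21. The cells were naive CD4 T cells (CD4+CD25-CD44lo) of C57BL/6 mice, sort purified from spleen and lymph nodes, and every culture was stimulated through the T cell receptor and the costimulatory receptor CD28 with plate-bound antibodies. The labels give 1 concentration for each cytokine, 20 ng/ml for IL6, 1 ng/ml for TGFb, 10 ng/ml for IL1b and 20 ng/ml for IL21. A further 3 libraries at 12 h received IL1b and IL21 together on the same IL6 and TGFb, and served to set each cytokine alone against its addition to the other. The libraries carry course numbers 4, 5 and 6 in every group. The labels name them biological replicates without saying which mice or cultures they share, so p-values measure only the spread between libraries. In the main fit that spread is pooled over all 84 libraries of courses 4 to 6, including other times and cocktails. These are bulk cultures, in which fewer cells of a type and less RNA per cell cannot be told apart.

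IL1b is an inflammatory cytokine. Its receptor (Il1r1 with the accessory chain Il1rap) signals through the adaptor Myd88 and the Irak kinases to the NF-kB transcription factors, which switch on their own inhibitors among other genes. IL21 is made by helper T cells themselves; its receptor (Il21r with the shared chain Il2rg) signals through Jak kinases to STAT factors, mainly Stat3, the factor that IL6 also uses. Both cytokines are known to favour the Th17 fate, whose cells make interleukin 17, when they act together with IL6 and TGFb.

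The 6 libraries held 17.5 to 35.5 M recovered reads, over which 1 read was worth 0.0282 to 0.0572 CPM, the reads of a gene scaled to library size. Levels below are CPM after scaling between libraries with TMM factors. Markers of CD4 T cells summed to 2560 to 2590 CPM in the IL1b cocktail and 2530 to 2700 CPM in the IL21 cocktail. Erythroid and platelet markers summed to 6.6 to 8.82 CPM with IL1b and 6.54 to 9.48 CPM with IL21, with Pf4 and Ppbp at 0 in all of these libraries and Itga2b at 2.20 to 2.52 CPM. The 2 CD8 T cell markers summed to 3.87 to 4.13 CPM with IL1b and 2.49 to 3.48 CPM with IL21, ranges that do not overlap. Of these, Cd8b1 had 3.87, 3.80 and 3.68 CPM with IL1b, against 2.34, 3.22 and 3.25 CPM with IL21 (unadjusted p = 0.0442, adjusted p = 1, limma), and its part in the results below was not tested. Markers of NK and gamma-delta T cells summed to 3.68 to 3.86 CPM with IL1b and 3.59 to 4.24 CPM with IL21. Myeloid markers summed to 4.97 to 7.72 CPM with IL1b and 6.69 to 8.59 CPM with IL21. The libraries deviated from their group means by 0.104 to 0.145 (root mean square, log2), where the median over the 84 libraries of courses 4 to 6 was 0.151.

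At 12 h, 3 genes passed the test between the IL1b and the IL21 cocktail. Cd72 and Kit were higher with IL1b (0.0135% of all genes), and Oas2 was lower (0.00673%). They are 3 of 14859 genes tested, or 0.0202%, at an adjusted p under 0.05 (limma on log2 of CPM plus 0.5, Benjamini-Hochberg over all genes). At an unadjusted p under 0.05 there were 214 genes (1.44%), 81 higher (0.545%) and 133 lower (0.895%). The median log2 fold change over all genes was -0.004, and the 95% interval of a gene's log2 fold change had a median half-width of 0.267. All 3 genes averaged under 5 CPM in both groups, so none met the level set for naming genes; they are named because there were only 3. The count was 1, Cd72, without the IL1b library of course 6 or the IL21 library of course 4 or 5. It was 24 when the fit held only the 9 libraries of 12 h. With a replicate block (a course term) it was 54 in the 6 libraries and 68 in the 9. The count of 3 thus holds for the main fit, which pools all 84 libraries and leaves the course out.

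The promoters of the 2 genes that were higher with IL1b than with IL21 are shown first, from RefSeq on GRCm38.p6. An NF-kB-type motif can be looked for in them. Each run is the 250 bases upstream of the annotated start, read 5′ to 3′ on the gene's strand. Capitals mark matches on either strand to a loose form of the NF-kB motif, GGG and CC with 5 bases of any kind between them. The Cd72 window lies at chr4:43454627-43454876 on the minus strand and the Kit window at chr5:75574737-75574986 on the plus strand.
Cd72: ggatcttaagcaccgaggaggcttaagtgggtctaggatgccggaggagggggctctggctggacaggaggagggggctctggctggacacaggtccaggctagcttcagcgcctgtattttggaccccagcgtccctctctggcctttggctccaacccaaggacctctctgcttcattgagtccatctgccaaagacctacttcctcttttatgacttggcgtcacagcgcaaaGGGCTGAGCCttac
Kit: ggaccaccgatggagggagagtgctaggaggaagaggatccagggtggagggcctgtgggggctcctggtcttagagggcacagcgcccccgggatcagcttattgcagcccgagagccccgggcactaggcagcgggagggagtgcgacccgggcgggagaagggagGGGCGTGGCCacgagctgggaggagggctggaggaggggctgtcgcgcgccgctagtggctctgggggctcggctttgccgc

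Each of these windows held 1 match, beginning 14 bases before the start of Cd72 and 82 bases before the start of Kit, for the first of the 2 Kit windows in the table. Neither held a match to the STAT motif TTCNNNGAA, which reads the same on both strands. Of all 32851 promoter windows of this length, 45.8% held the NF-kB letters and 7.02% the STAT letters. A match to letters this common does not mark Cd72 or Kit as carrying an NF-kB site. The table used here has no entry for Oas2.

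Cd72, a surface receptor of the C-type lectin family best known from B cells, had 3.94, 4.02 and 4.67 CPM with IL1b in courses 4, 5 and 6, against 1.24, 1.77 and 1.65 CPM with IL21. The 2 groups did not overlap, and all 3 IL1b libraries stood more than 2-fold above the highest IL21 library. The log2 fold change was 1.20 ± 0.17 (SE, adjusted p = 2.43e-05, limma). Leaving out any 1 of the 6 libraries kept Cd72 past the threshold, with adjusted p up to 0.00441. In a fit of the 6 libraries alone, without the other groups, its adjusted p was 0.0636. Counted reads were 73 to 123 with IL1b and 35 to 66 with IL21. The 10 B cell markers summed to 31.4 to 40.4 CPM with IL1b and 26.5 to 33.7 CPM with IL21, ranges that overlap. Most of that sum was Ighm, an immunoglobulin heavy chain, at 22.7 to 32.7 CPM, while Ms4a1 reached at most 1.71 CPM in any library at 12 h. Of the 10 markers, 0 passed the test, and their median log2 fold change was 0.149, against -0.004 over all genes. Their part in the result was not tested.

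Kit, the receptor tyrosine kinase for stem cell factor, had 4.22, 2.76 and 3.34 CPM with IL1b, against 1.14, 0.698 and 1.35 CPM with IL21. Again the groups did not overlap, the lowest IL1b library (course 5) lying above the highest IL21 library (course 6). The log2 fold change was 1.34 ± 0.25 (SE, adjusted p = 0.0122, limma), from 50 to 120 reads with IL1b and 26 to 36 with IL21. Kit marks mast cells as well, whose other markers (Cpa3, Fcer1a, Ms4a2, Mcpt4, Tpsb2 and Hdc, a list added after Kit was seen) summed to 0.228 to 0.281 CPM with IL1b and 0.242 to 0.598 CPM with IL21, with 4 and 3 of the 6 at 0 in those groups. The call rested on single libraries. The adjusted p was 0.219 without the IL1b library of course 4, 0.0669 without that of course 6, 0.0625 without the IL21 library of course 4 and 0.34 without that of course 5. With all libraries it was 0.0104 by edgeR and 0.000225 by DESeq2. With a course term (limma) it was 0.0237 in the 6 libraries, 0.00935 in the 9 and 0.000108 at each time. In the 6 libraries without that term it was 0.137 (limma).

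Oas2, an interferon-induced enzyme that senses double-stranded RNA, had 1.13, 0.606 and 1.03 CPM with IL1b, against 2.95, 1.99 and 1.94 CPM with IL21. Every IL1b library lay below every IL21 library, on 11 to 32 reads with IL1b and 52 to 83 with IL21. The log2 fold change was -0.98 ± 0.20 (SE, adjusted p = 0.0238, limma). This call was lost without the IL1b library of course 5 (adjusted p = 0.933), that of course 6 (0.0669), the IL21 library of course 4 (0.898) or that of course 5 (0.078). With edgeR's quasi-likelihood test on the recovered reads the adjusted p was 0.597, and with a pseudocount of 0.1 or 1 it was 0.067 or 0.107. With DESeq2 it was 0.0398. With a course term (limma) it was 0.0699 in the 6 libraries, 0.0311 in the 9 and 0.000213 at each time.

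**Figure D1:**
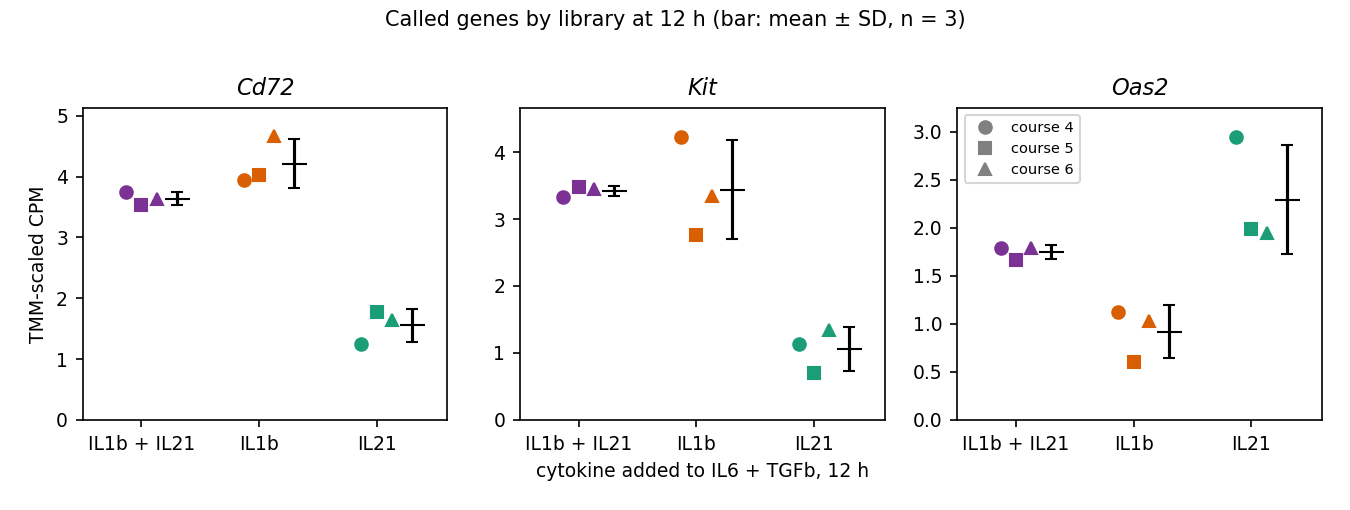
TMM-scaled CPM (y axis, from 0) of Cd72, Kit and Oas2 in each library at 12 h, with IL1b and IL21 together, IL1b alone or IL21 alone added to IL6 and TGFb; marker shapes are courses and black bars the mean ± SD of 3 libraries. Cd72 and Kit with both cytokines lie near the IL1b libraries (3.53 to 3.75 and 3.33 to 3.47 CPM), and Oas2 with both lies at 1.66 to 1.79 CPM, between the other groups.

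The cultures with both cytokines were set against each single one. With IL1b and IL21 together, Cd72 had 3.75, 3.53 and 3.62 CPM and Kit 3.33, 3.47 and 3.45 CPM. These were the 2 genes of 14859 (0.0135%) that passed the test when IL1b was added to the IL21 cocktail. Both were higher with the addition, by 1.02 ± 0.17 for Cd72 (SE, log2, adjusted p = 0.00178, limma) and 1.35 ± 0.25 for Kit (adjusted p = 0.0107, limma). At an unadjusted p under 0.05 there were 150 genes. Without the IL21 library of course 4 the count was 0, and without the library of both cytokines of course 4, 5 or 6 it was 1. When IL21 was added to the IL1b cocktail, 0 of 14859 genes (0%) passed the test, with 168 at an unadjusted p under 0.05. There edgeR called 0 and DESeq2 1. For Cd72 this difference was -0.18 ± 0.17 (95% interval -0.53 to 0.16), and for Kit it was 0.01 ± 0.25 (-0.50 to 0.52). These comparisons share their libraries with the first, so they are not independent of it.

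Most genes of the NF-kB and IL-1 response had a higher mean with IL1b at 12 h, by amounts that did not pass the test in the fit of all 84 libraries. Of the 23 genes of this list, all tested, 0 were called in either direction by limma or edgeR, with 3 at an unadjusted p under 0.05 in limma. In 19 of them the log2 fold change was positive, and the list's median was 0.151, against -0.004 over all genes. In 11 every IL1b library lay above every IL21 library and in 0 every library lay below, where the same held for 4.01% and 5.4% of all genes. Those 11 were Nfkbiz, Tnfaip3, Zc3h12a, Nfkbia, Nfkb2, Tnip1, Traf1, Cd83, Icam1, Relb and Lta. The list was written with earlier results of these data known, so this is a description of it.

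Among the regulators of the pathway, Nfkbiz, which encodes the nuclear NF-kB regulator IkB-zeta, had 46.36, 41.95 and 42.65 CPM with IL1b, against 26.95, 25.89 and 24.6 CPM with IL21. The groups lay far apart relative to their spread, and the log2 fold change was 0.75 ± 0.17 (adjusted p = 0.0969, limma), short of the threshold. Tnfaip3, the ubiquitin-editing enzyme A20 that shuts NF-kB signalling down, had 80.45, 84.28 and 100.5 CPM with IL1b, against 43.81, 57.36 and 61.26 CPM with IL21. Its log2 fold change was 0.71 ± 0.24 (unadjusted p = 0.00507, adjusted p = 1, limma). Zc3h12a, an RNase (Regnase-1) that degrades inflammatory transcripts, had 47.8, 46.0 and 43.1 CPM with IL1b, against 35.0, 36.3 and 32.7 CPM with IL21, and these libraries did not overlap either. Nfkbia, the inhibitor IkB-alpha, had 254.1, 284.1 and 308.1 CPM with IL1b, against 194.4, 220.8 and 222.2 CPM with IL21. The groups were separate, but the log2 fold change of 0.41 ± 0.21 has a 95% interval from -0.004 to 0.82.

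Other IkB genes of the list, Nfkbie, Nfkbib and Nfkbid, had log2 fold changes of 0.17, 0.08 and -0.05, and their libraries overlapped. Of the subunits of NF-kB, Nfkb2, which encodes the subunit p52 as a precursor, averaged 396.4 CPM with IL1b and 327.4 CPM with IL21, a log2 fold change of 0.28 ± 0.14. Relb, its partner, differed by 0.07 ± 0.13 (log2). Of 2 further targets, Cd83 had 3.13, 3.36 and 3.23 CPM with IL1b, against 1.95, 2.07 and 2.35 CPM with IL21, and Icam1, an adhesion molecule, had 62.8, 70.2 and 70.7 CPM with IL1b, against 49.8, 62.5 and 57.2 CPM with IL21. The remaining list members reached from -0.12 (Csf2, at most 0.187 CPM) to 0.31 (Ccl20, at most 0.417 CPM) on the log2 scale.

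The 4 regulators Nfkbiz, Tnfaip3, Zc3h12a and Nfkbia were also measured with both cytokines. Nfkbiz then had 46.3, 44.4 and 43.8 CPM, Tnfaip3 94.06, 96.95 and 102.4 CPM, Zc3h12a 42.9, 47.3 and 44.9 CPM, and Nfkbia 284.9, 307.3 and 284.6 CPM. Every one of these values was above every IL21 library of the same gene. None passed the test of IL1b added to the IL21 cocktail; the smallest adjusted p among the 4 was 0.066, for Nfkbiz (log2 fold change 0.79 ± 0.17, limma).

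The windows of Tnfaip3 (chr10:19015411-19015660, minus strand) and Nfkbia (chr12:55492648-55492897, minus strand) are shown for comparison with those of Cd72 and Kit, printed in the same way.
Tnfaip3: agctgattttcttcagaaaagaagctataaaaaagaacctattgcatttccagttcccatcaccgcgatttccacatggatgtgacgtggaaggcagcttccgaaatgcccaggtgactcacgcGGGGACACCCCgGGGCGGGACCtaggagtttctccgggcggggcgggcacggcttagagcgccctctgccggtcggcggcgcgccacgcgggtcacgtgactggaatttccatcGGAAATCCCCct
Nfkbia: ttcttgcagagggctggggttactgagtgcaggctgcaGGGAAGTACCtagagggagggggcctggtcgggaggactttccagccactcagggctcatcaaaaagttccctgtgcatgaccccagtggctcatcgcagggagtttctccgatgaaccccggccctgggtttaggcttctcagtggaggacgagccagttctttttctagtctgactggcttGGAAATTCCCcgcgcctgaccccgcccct

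The Tnfaip3 window shown is the first of 2 in the table and held 4 matches, of which those beginning 126 and 125 bases before the start overlap. The second Tnfaip3 window held 2, which overlap each other, beginning 90 and 89 bases before its start, and the Nfkbia window held 2, beginning 212 and 29 bases before the start. Of the 24 windows of the 19 list genes in the promoter table, 83.3% held the letters, against 45.8% of all windows, and 25% held the STAT letters, against 7.02%. These genes were listed for being known NF-kB targets, and Nfkbiz has no entry in the table. A match of letters is a description and does not show binding.

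**Figure D2:**
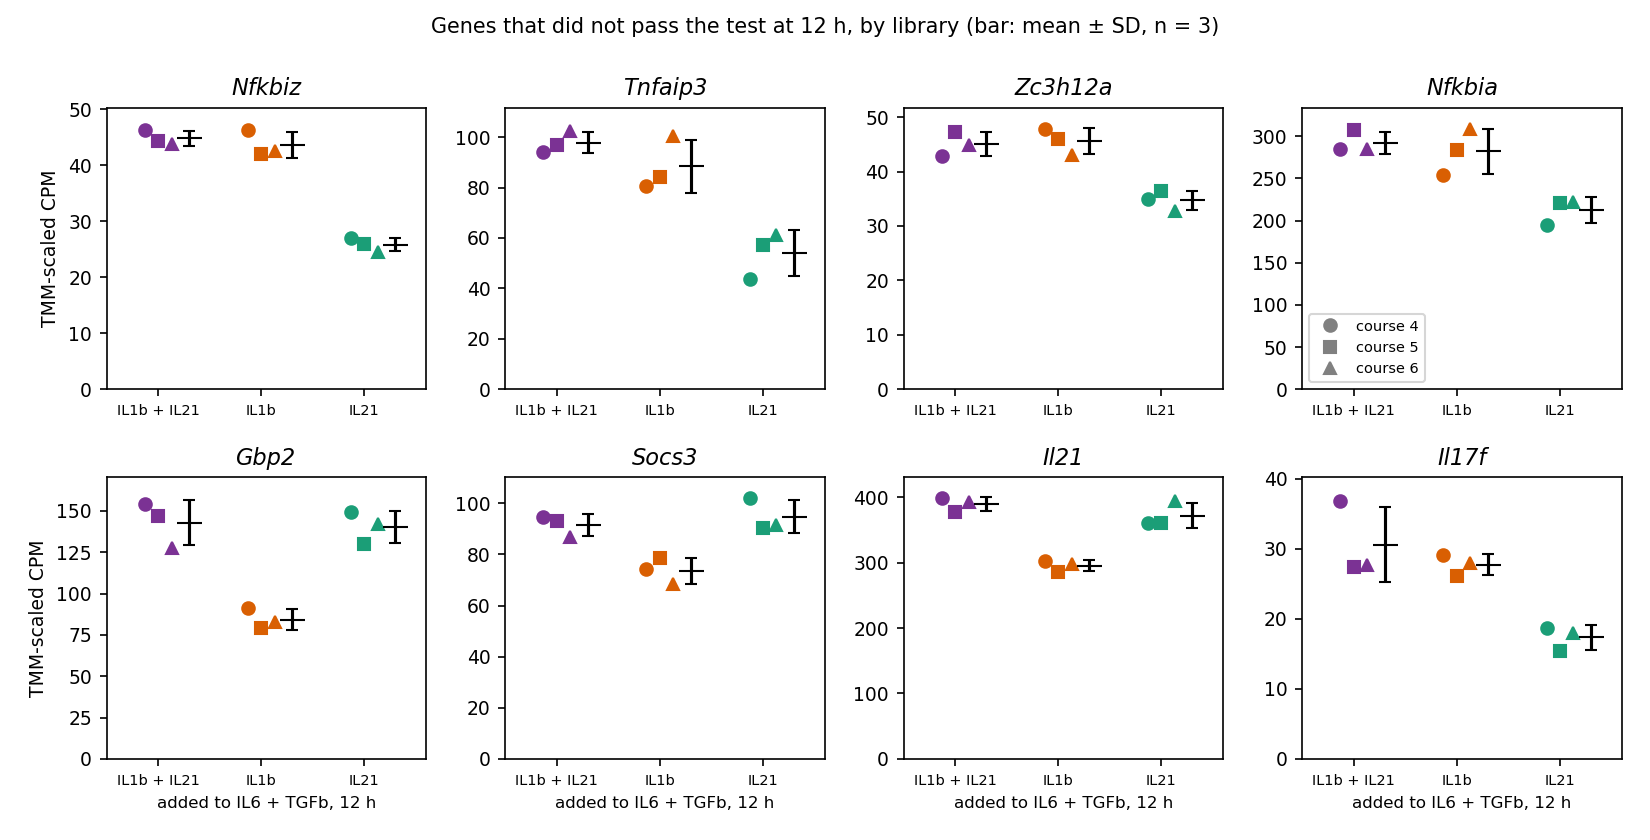
TMM-scaled CPM (y axis, from 0) of 8 genes that did not pass the test, in each library at 12 h with IL1b and IL21, IL1b or IL21 added to IL6 and TGFb; marker shapes are courses and black bars the mean ± SD of 3 libraries. Nfkbiz, Tnfaip3, Zc3h12a, Nfkbia and Il17f lie lowest with IL21 alone, and Gbp2, Socs3 and Il21 lie lowest with IL1b alone.

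No gene of the receptor and its adaptors passed the test. Of the 18 genes of the IL-1 receptor pathway list 17 were tested, 0 were called, and the median log2 fold change was 0.044; the remaining one, Il1rl1, did not reach the level for testing. Sigirr was the only gene of the list at an unadjusted p under 0.05 (log2 fold change -0.28 ± 0.14, unadjusted p = 0.0432, limma). Il1r1 itself had 9.01, 7.55 and 6.79 CPM with IL1b, against 11.9, 8.92 and 8.78 CPM with IL21. Its groups overlapped, though it was lower with IL1b in every course (log2 fold change -0.32 ± 0.24). The decoy receptor Il1r2 had 3.48, 2.87 and 3.95 CPM with IL1b, against 2.45, 2.71 and 2.32 CPM with IL21, and the receptor antagonist Il1rn 0.915, 0.551 and 0.721 CPM with IL1b, against 0.213, 0.483 and 0.523 CPM with IL21. In both, every IL1b library was above every IL21 library, with log2 fold changes of 0.39 ± 0.34 for Il1r2 and 0.45 ± 0.24 for Il1rn. Irak2 was the third such gene (0.29 ± 0.23), and Myd88 was the only gene of the list with every IL1b library below (109.9, 110.0 and 108.7 CPM with IL1b, against 111.0, 111.9 and 113.9 CPM with IL21), a log2 fold change of -0.04 ± 0.09. Of the 17 tested genes 3 thus lay wholly above and 1 wholly below, where 4.01% and 5.4% of all genes did.

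On the IL21 side, 0 of 11 genes of the IL-21 receptor and JAK-STAT list were called, with a median log2 fold change of -0.008. Il21r had 218.3, 234.9 and 230.1 CPM with IL1b, against 259.1, 257.9 and 249.7 CPM with IL21, and Stat5a, a STAT factor used by several cytokines of this receptor family, had 507.8, 516.3 and 515.5 CPM with IL1b, against 427.3, 431.5 and 427.9 CPM with IL21. Neither overlapped, and the log2 fold changes were -0.17 ± 0.10 for Il21r and 0.26 ± 0.13 for Stat5a. Stat3 averaged 661 CPM with IL1b and 637 CPM with IL21, a log2 difference of 0.05 ± 0.14.

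Of the 19 genes of the IL-6, IL-21 and STAT3 response, 0 were called, the median log2 fold change was -0.039, and 7 were positive. In 5 of them every IL1b library lay below every IL21 library and in 2 every one lay above, where 5.4% and 4.01% of all genes did. Socs3, the feedback inhibitor of IL6 signalling, had 74.19, 78.55 and 68.42 CPM with IL1b, against 102.2, 90.53 and 91.62 CPM with IL21, a log2 fold change of -0.36 ± 0.21 (adjusted p = 1, limma). Il21, the gene of the cytokine itself, had 302.4, 285.6 and 298.3 CPM with IL1b, against 361.2, 360.5 and 393.4 CPM with IL21. Maf and Prdm1, transcription factors that promote Il10, and Bcl6, the factor of follicular helper T cells, were the others below, and the kinase gene Pim2 and the transcription factor gene Batf were the 2 above. With both cytokines, Socs3 had 94.55, 93.12 and 86.64 CPM and Il21 had 398.0, 378.0 and 392.8 CPM, above every IL1b library in each case.

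In the fit of all 84 libraries without a course term, 0 of 16 genes of the Th17 core list were called at 12 h. The list's median log2 fold change was 0.048. With a course term in the 6 libraries, Il17f was called higher and Il21 lower (adjusted p = 0.0177 and 0.0237, limma). Over all genes 0.188% were called higher in that fit and 0.175% lower. Neither gene was called with a course term at each time in all 84 libraries. Il17f had 29.16, 26.13 and 27.97 CPM with IL1b, against 18.71, 15.36 and 18.02 CPM with IL21, and 36.8, 27.3 and 27.6 CPM with both. The 12 h libraries of the first 2 groups did not overlap, but the spread that the fit pools over all 28 groups left a log2 fold change of 0.66 ± 0.64. Il17a was still close to the limit of counting, at 0.422, 0.606 and 1.21 CPM with IL1b, against 0.107, 0.457 and 0.486 CPM with IL21. Its groups overlapped, though it was higher with IL1b in every course. Il23r, the receptor of IL23, had 0.950, 0.496 and 0.417 CPM with IL1b, against 1.03, 1.13 and 1.35 CPM with IL21, and Il22 had 0.211, 0.276 and 0.683 CPM with IL1b, against 0.107, 0.134 and 0.187 CPM with IL21. Of the regulators of other fates, Foxp3 (Treg), Tbx21 (Th1) and Gata3 (Th2) differed by 0.26 ± 0.66, -0.34 ± 0.43 and 0.06 ± 0.16 on the log2 scale.

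**Figure D3:**
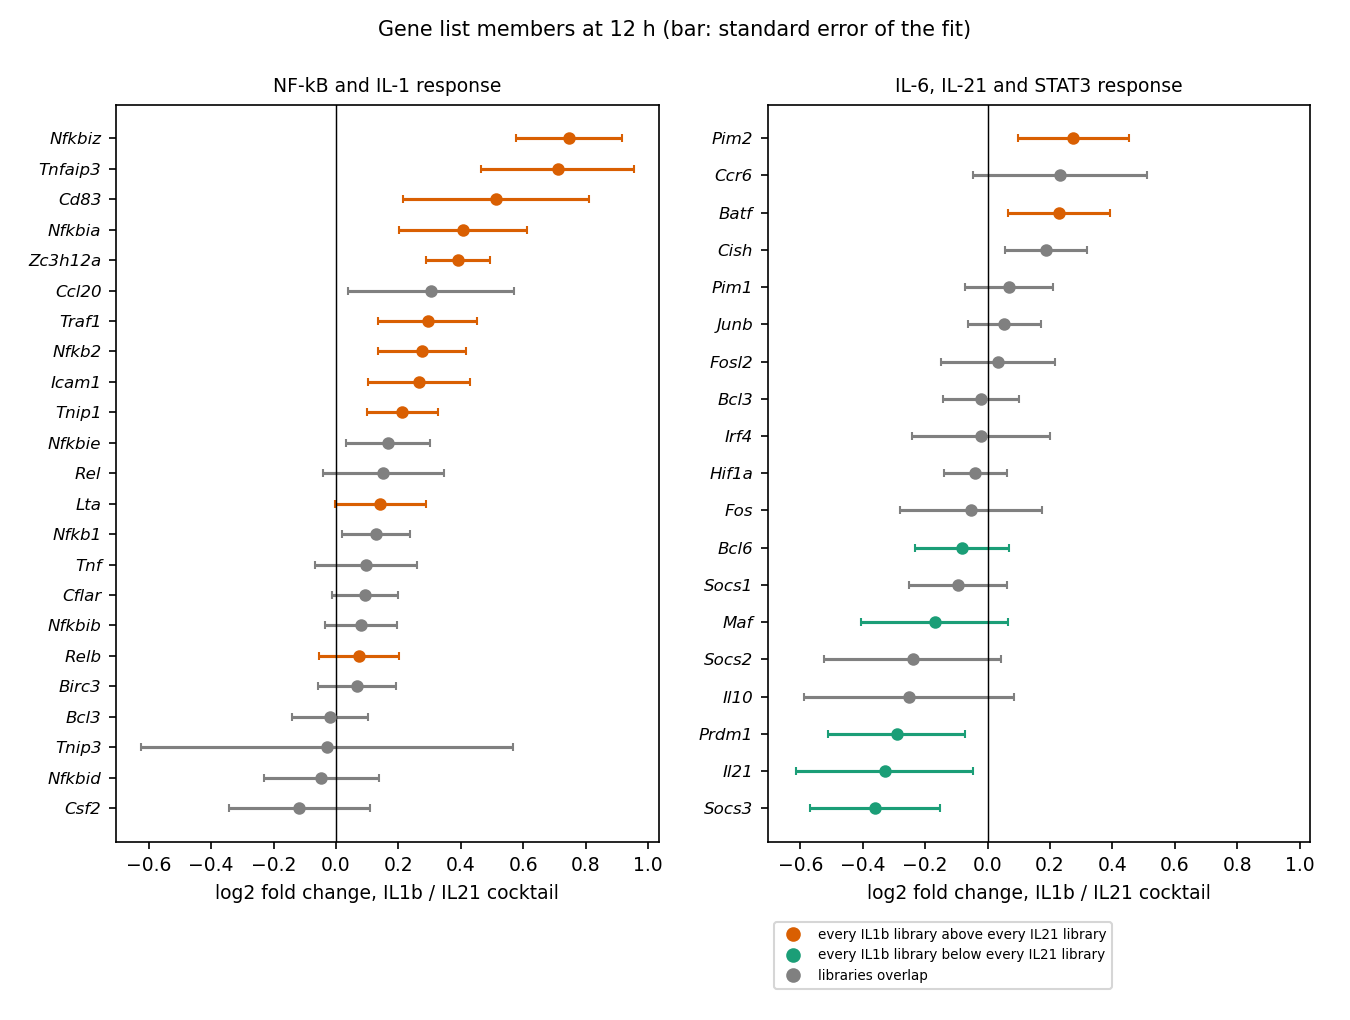
Log2 fold change of the IL1b over the IL21 cocktail at 12 h (x axis) with the standard error of the fit, for every member of 2 gene lists (y axis); colours mark genes whose libraries do not overlap between the groups. In the NF-kB list 11 of 23 genes lie wholly above and 0 wholly below, and in the STAT3 list 2 and 5 of 19; 0 passed the test.

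Oas2 is not in the interferon response list, of whose 19 genes 0 were called, the median log2 fold change was -0.076, and in 3 every IL1b library lay below every IL21 library (Gbp2, Ly6a and, at no more than 0.142 CPM, Ifit3) while in 0 every one lay above, against 5.4% and 4.01% of all genes. Gbp2, a guanylate-binding protein induced by interferons, had 91.0, 78.9 and 83.0 CPM with IL1b, against 149.0, 130.0 and 141.9 CPM with IL21. The groups did not overlap, and its log2 fold change of -0.73 ± 0.25 had an adjusted p of 1 (unadjusted p = 0.00492, limma) in the main fit. With a course term Gbp2 was called lower in the 6 libraries, in the 9 and at each time (adjusted p = 0.00128, 0.00427 and 0.0155, limma). With both cytokines Gbp2 had 154.2, 146.8 and 127.5 CPM, above every IL1b library.

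Genes of Th1 cells and of naive, resting T cells gave 0 calls as well. In the Th1 list of 15 genes the median log2 fold change was -0.064. Every IL1b library lay below every IL21 library in 4 genes and above in 0, against 5.4% and 4.01% of all genes. Il12rb2, a chain of the IL12 receptor, was among these 4, with 1.78 ± 0.362 CPM with IL1b and 3.07 ± 0.272 CPM with IL21 (SD, n = 3 each). In the naive and quiescence list of 16 genes the median was -0.051, with 5 genes separate below and 1 above, against 5.4% and 4.01% of all genes. S1pr1, the receptor that guides naive T cells out of lymph nodes, was among these 5, with 32.6 ± 4.63 CPM with IL1b and 47.7 ± 6.77 CPM with IL21 (SD, n = 3 each), a log2 fold change of -0.54 ± 0.27. In the fits of all 84 libraries without a course term, limma called 0 genes within any of the 30 lists, and the 2 genes that edgeR called were both outside them. Other fits of these libraries did call list members.

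Follicular helper T cell genes (Tfh, the T cells that help B cells) and those of the TNF family were described in the same way, with 0 called in either list. In the Tfh list of 13 genes every IL1b library lay below every IL21 library for Bcl6, Cxcr5, Pdcd1, Il21, Tox2 and Tcf7 and above for Btla, against 5.4% below and 4.01% above over all genes, and the median log2 fold change was -0.045. Tox2, a transcription factor gene, had 58.96, 53.14 and 50.96 CPM with IL1b, against 74.13, 61.79 and 60.26 CPM with IL21, a log2 fold change of -0.26 ± 0.19. Pdcd1, the inhibitory receptor PD-1, differed by only -0.04 ± 0.24, although its libraries were also separate. In the TNF family list 17 of 20 tested genes had a positive log2 fold change, with a median of 0.133. Its separate genes were Lta, Ltb, Tnfsf9 and Tnfrsf4 above and Tnfrsf26 below, against 4.01% and 5.4% of all genes. Tnfsf9, the ligand of the costimulatory receptor 4-1BB, had 1.94, 2.04 and 2.05 CPM with IL1b, against 0.923, 1.48 and 1.46 CPM with IL21, and 1.89, 1.78 and 1.75 CPM with both. Its log2 fold change was 0.51 ± 0.20 (unadjusted p = 0.0157, adjusted p = 1, limma). In the cell cycle list 18 of 22 genes were positive with a median of 0.072, where 6997 of all 14859 genes were positive. In that list 1 gene was separate above and 1 below, near the 4.01% and 5.4% of all genes.

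The IL1b and IL21 cocktails differed in 2 genes at 0.5 h (0.0135%), 0 at 1 h (0%; 305 at an unadjusted p under 0.05, and 1 by edgeR), 29 at 2 h (0.195%), 10 at 4 h (0.0673%), 0 at 6 h (0%; 220 at an unadjusted p under 0.05, and 0 by edgeR), 3 at 12 h, 36 at 24 h (0.242%), 362 at 48 h (2.44%) and 1468 at 72 h (9.88%). Cd72 started at 14.3 ± 2.04 CPM in naive cells (SD, n = 3) and stood at 2.76 CPM with IL1b and 1.81 CPM with IL21 at 6 h. It was called again at 24, 48 and 72 h, with log2 fold changes of 1.13, 1.19 and 1.21 (adjusted p = 2.5e-05, 1.24e-06 and 2.31e-07, limma). Kit, at 0.562 CPM in naive cells, reached 10.4 CPM with IL1b and 11.3 CPM with IL21 at 2 h, before the groups parted; it was called at 24, 48 and 72 h with log2 fold changes of 1.79, 1.45 and 1.72.

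Oas2 had another course. It was at 89.2 ± 13.5 CPM in naive cells (SD, n = 3), and at 2 h it stood at 98.0 CPM with IL1b and 194.3 CPM with IL21, a log2 fold change of -0.99 ± 0.20 (adjusted p = 0.0108, limma). It was called at 2, 4 and 12 h and not at 6 h, where the groups overlapped (log2 fold change -0.51, adjusted p = 1, limma), nor at 24, 48 or 72 h, where the log2 fold changes were 0.04, -0.15 and -0.33. By 12 h its level was under 3 CPM in both groups.

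For Nfkbiz the fold changes (log2) ran from -0.32 after 0.5 h through 0.20 after 4 h, 0.32 after 6 h and 0.75 after 12 h to 1.76, 2.06 and 1.76 after 24, 48 and 72 h, and those last 3 were called. In the NF-kB list the genes called higher with IL1b numbered 0 of 23 at 12 h, 3 at 24 h, 6 at 48 h and 16 at 72 h, where 0.175%, 0.747% and 5.15% of all genes were called higher at the last 3 times. In the list 1 gene was called lower, at 72 h, where 4.73% of all genes were. The median over the list was 0.093 (log2) after 6 h, against 0.151 after 12 h and 0.701 after 72 h.

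The effect at 12 h minus that at 6 h, or at 24 h, was tested for each gene, and 0 genes passed in either (limma; edgeR also called 0 in both), with 129 and 213 at an unadjusted p under 0.05. For Cd72 the effect was larger at 12 h than at 6 h by 0.69 ± 0.24 (log2, unadjusted p = 0.00603, adjusted p = 1, limma). For Nfkbiz it was smaller at 12 h than at 24 h by a difference of -1.01 ± 0.24 (unadjusted p = 7.78e-05, adjusted p = 0.385), and for Oas2 the difference from 24 h was -1.02 ± 0.28 (adjusted p = 0.635). These contrasts share the 12 h libraries.

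**Figure D4:**
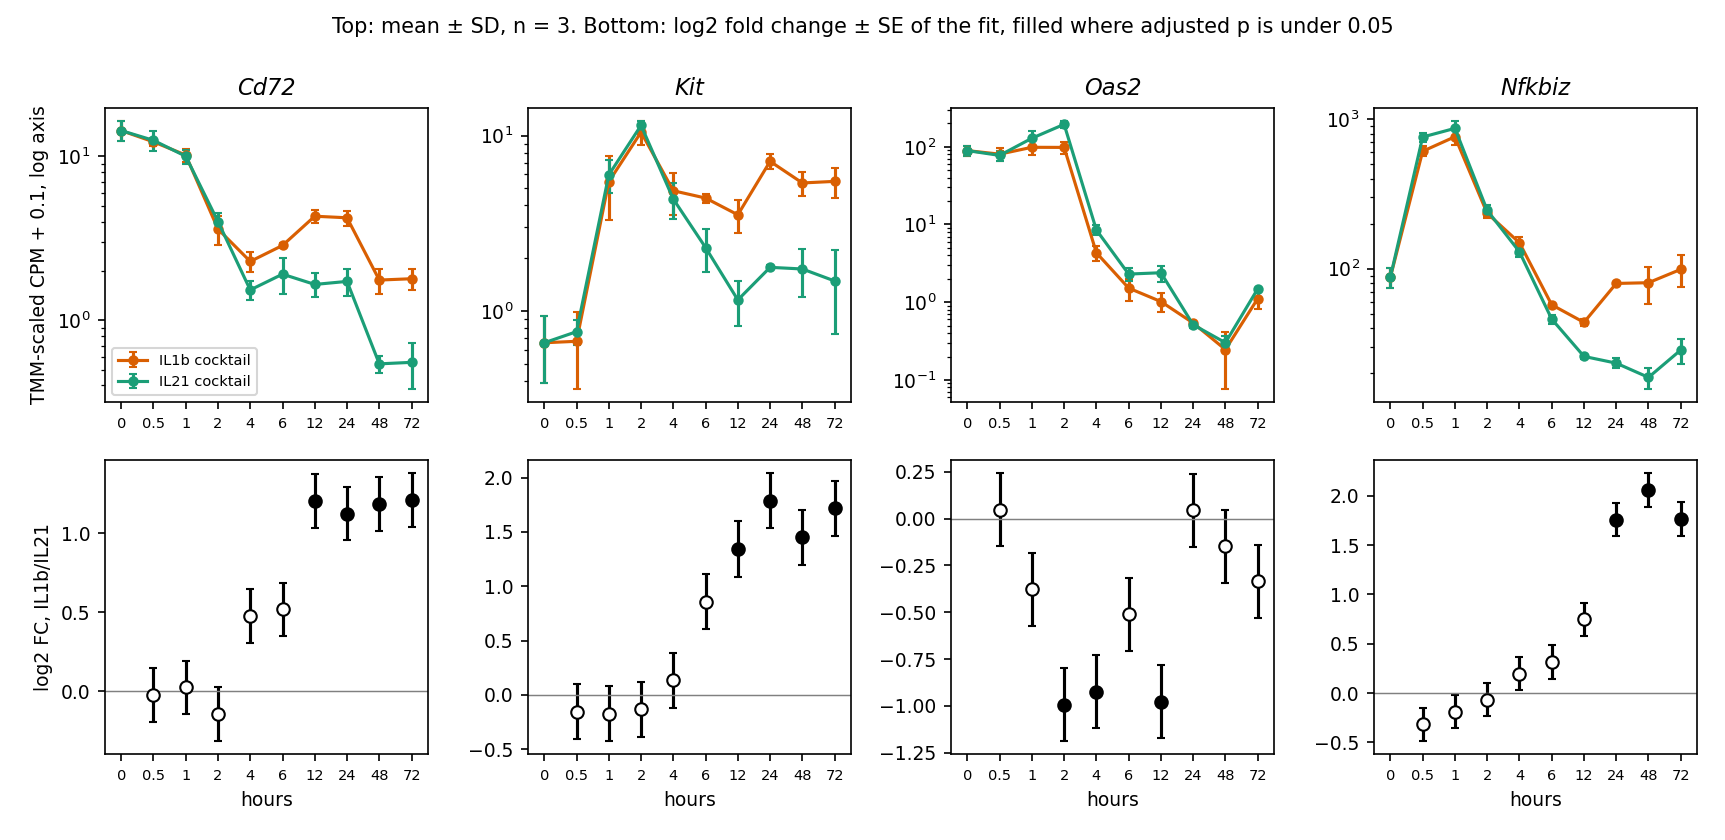
Upper row, TMM-scaled CPM plus 0.1 on a log axis against hours of culture for Cd72, Kit, Oas2 and Nfkbiz in the IL1b and IL21 cocktails (mean ± SD of 3 libraries; naive cells at 0 h are shared). Lower row, log2 fold change of the IL1b over the IL21 cocktail ± SE, filled where called: Cd72 and Kit from 12 h on, Oas2 at 2, 4 and 12 h, and Nfkbiz from 24 h on.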

How the data were processed

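RNA-seq libraries of bulk T cell cultures were compared. The deposited table gives CPM (read counts scaled to library size) per gene and library, made by the authors; the submitters' processing notes name TopHat, HTSeq, mm9 and GRCh37 without their roles. Every value was a whole multiple of 1 read (100% within 0.001), so reads were recovered. The groups come from the labels. The main test was limma 3.58.1 on log2 of TMM-scaled CPM plus 0.5, fitted to all 84 libraries of courses 4 to 6 (28 groups of 3), with no course term, on the 14859 of 46517 genes with at least 1 CPM in 3 libraries; standard errors therefore pool the spread over all groups and times. Genes were called at a Benjamini-Hochberg adjusted p under 0.05. edgeR 4.0.16 and DESeq2 1.42.0 on the recovered reads, other pseudocounts, filters, scalings and subsets, and leaving out libraries were alternatives. Scripts were tested on simulated data. Genes were to be named if called and at 5 CPM or more; further genes come from 30 lists. The members and lists were chosen with earlier results of these data known. Mitochondrially encoded genes (37) had 0 reads. Replicates of the compared groups differed by 3.34 to 5.91 times the Poisson expectation. The numbers of reads limit only counting error. Some list members are not reported here. Promoters come from RefSeq, GRCm38.p6; no coordinates of the files were used.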

Additional observations from a re-analysis of the deposited data

How the results depend on the processing

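The count of 3 genes at 12 h changed with the filter, the libraries fitted, the course term and the test. It was 13 with no filter on low values, 24 with only the 9 libraries of 12 h, 7 with a replicate block over all 84 libraries, 25 with a replicate block at each time, 54 with the block in the 6 libraries and 68 with it in the 9. DESeq2 called 5. In alternatives chosen after seeing the data, TMM factors from the subset gave 11 in the 6 libraries and 26 in the 9, and 71 and 75 with the block; edgeR in the 6 libraries called 69, and 384 with the block. The 6 libraries without a block called 3 genes, none of them Cd72, Kit or Oas2. Leaving out libraries gave 1 to 3. The cause was not tested. Same-numbered libraries of the compared groups correlated at 0.287, 0.0973 and 0.311 in their deviations. Not every pair passed 0.1, so the main fit had no course term, a choice made with the block counts in view. Each library correlated best with its own number, a hint of pairing that the main fit leaves out. In all 3 limma block fits 16 genes were called, 10 higher and 6 lower, with 2 of the 3 main calls among them. They include Nfkbiz, Tnfaip3, Zc3h12a and Nfkbia (adjusted p = 0.00633, 0.018, 0.0198 and 0.0177 in the 6 libraries, limma). Gbp2, Lad1 and Tubb2b are also among them (adjusted p = 0.00128, 0.0177 and 0.0451 in the 6 libraries, limma). Of the 23 NF-kB list genes 6 were called higher with the block in the 6 libraries and 4 with it at each time, against 0.188% and 0.101% of all genes; 19 (82.6%) were higher in every course, against 13.6% of all genes. With the block in the 6 libraries the naive and the interferon lists had 2 genes called lower each and the Th1 list 1, against 0.175%. In that fit the Th17 core and the STAT3 response lists had 1 gene called higher and 1 lower each. The JAK-STAT list had 1 higher, against 0.188%. The Tfh, TNF family, chemokine and inhibitory receptor lists had 1 lower each. Some genes belong to more than 1 list.

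For IL1b added to the IL21 cocktail (2 called), the count was 12 with no filter, 14 with the 9 libraries, 1 with the replicate block in the 6 libraries, 30 with it in the 9, 4 over all 84 and 11 at each time, and 0 to 2 with libraries left out. For IL21 added to the IL1b cocktail (0 called), it was 1 with a pseudocount of 0.1, 4 with no filter, 3 with the 9 libraries, 1, 6 and 9 with the replicate block in the 6, in the 9 and at each time, 1 by DESeq2, and 0 to 0 with libraries left out. With the block at each time the IL1b and IL21 cocktails differed in 8, 9, 249, 145, 18, 249, 1294 and 3266 genes at 0.5, 1, 2, 4, 6, 24, 48 and 72 h, and the effect at 12 h minus that at 24 h in 23. edgeR called 0, 1, 53 and 0 at 0.5, 1, 2 and 4 h, and CPM without TMM scaling gave 4 at 0.5 h. The NF-kB genes with every IL1b library above every IL21 library numbered 11 to 16 with libraries left out. The direction turned for Il1rap (0.0849, 0.0154, 0.088 and 0.024 with libraries left out, in a range of -0.175 to 0.088, 0.000278 by edgeR in the 6 libraries, 0.00472 by DESeq2), Il6st (-0.00849 with a library left out) and Nfkbid (0.000728 with a library left out, in a range of -0.0989 to 0.000728), all on the log2 scale. Of 1926 gene values under alternatives over 69 genes, 1726 kept direction and side of the threshold, 166 came to pass it, 26 ceased to and 8 turned. With 3 libraries a group and 11 to 32 reads of Oas2 with IL1b, counting error limits the lowest genes.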

Other observations

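Some genes outside the lists lay apart between the IL1b and the IL21 cocktail at 12 h without passing the test in the main fit. They were chosen after their values were seen. Tubb2b, a beta-tubulin, had 3.80, 2.87 and 3.38 CPM with IL1b, against 6.82, 5.83 and 5.94 CPM with IL21, a log2 fold change of -0.80 ± 0.18 (adjusted p = 0.0954, limma). With both cytokines it had 6.03, 6.38 and 4.95 CPM. Tnnt2, a troponin gene, had 1.09, 1.10 and 1.21 CPM with IL1b, against 0.391, 0.376 and 0.561 CPM with IL21 (log2 fold change 0.80 ± 0.18, adjusted p = 0.0969, limma). Cxcl16, a chemokine gene, had 1.44, 1.21 and 1.71 CPM with IL1b, against 0.817, 0.752 and 0.523 CPM with IL21. Lad1, a basement membrane protein gene, had 17.1, 15.8 and 24.7 CPM with IL1b, against 7.14, 6.88 and 7.78 CPM with IL21, and 15.1, 15.7 and 14.8 CPM with both. Its log2 fold change of 1.32 ± 0.49 had an adjusted p of 1 (unadjusted p = 0.00946, limma). In each of these genes the 2 groups did not overlap. With a course term Lad1 and Tubb2b were called in the 6 libraries (adjusted p = 0.0177 and 0.0451, limma), in the 9 and at each time. Tnnt2 and Cxcl16 were called only with that term at each time (adjusted p = 0.015 and 0.0322, limma).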
